A study of Mus musculus with 24 samples.

Results

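The regulators of the integrated stress response built around the transcription factors ATF4 and CHOP were followed through a 46 h time course of cultured mouse hepatocytes. The members were fixed by name as Atf4, Atf5, Ddit3 (which encodes CHOP), Trib3, Chac1, Ppp1r15a, Cebpg, Cebpb, Nupr1 and Gdf15, and every probe set that the platform annotation assigned to 1 of these symbols alone was taken. This gave 17 probe sets for 9 of the 10 genes, out of 18193 genes named on the array. Gdf15 had no such probe set in the annotation used here and was not analysed here. A filter on low values, a log2 value of at least 5 on at least 6 arrays, left 16 of the 17 probe sets and all 9 genes, against 9825 genes in all. Where a gene had several probe sets, the one of highest mean represents it, and the others are described beside it.

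The cells were MMH-D3, an immortalized hepatocyte line from livers of mice with a constitutively active form of the receptor Met. Per the labels, confluent cells were differentiated for 14 days in growth medium with 2% DMSO, synchronized by a serum shock (a pulse of serum that aligns the clocks of cultured cells) and left for 12 h. All arrays share this treatment, and there was no unshocked control. RNA was then taken every 2 h from 12 to 58 h, with 1 single-colour Affymetrix array per time point, so no time point had a replicate and nothing says whether the cultures were separate. Values are log2 GCRMA values, and the errors given are the scatter of the 24 arrays about fitted lines, which may be technical in part.

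ATF4 is a basic leucine zipper (bZIP) activator whose mRNA is translated when kinases that sense amino acid shortage, endoplasmic reticulum stress, haem deficiency or double-stranded RNA phosphorylate the initiation factor eIF2. It binds DNA with C/EBP family partners, among them C/EBP gamma and C/EBP beta, at composite sites, and raises CHOP, ATF5 and the effectors TRIB3 and CHAC1. Ppp1r15a encodes GADD34, the phosphatase subunit that restores eIF2. In hepatocytes this pathway is known for adapting amino acid supply and for the response to drugs and protein overload.

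To show what the best-known ATF4 site looks like near these genes, the RefSeq start regions of the members (build GRCm38.p6, 250 bases before to 50 after the start) were searched on both strands for the composite ATF4-C/EBP motif TGATGNAA, the cyclic AMP response element TGACGTCA and the C/EBP motif TTGCNNAA. The motifs did not overlap each other in these windows. All 9 genes matched the table, with 10 windows, since Atf5 has a pair of starts. The composite motif lay in the windows of 3 of the 9 genes (Chac1, Nupr1 and Trib3), and it lay in 3.97% of all 32851 windows. The cyclic AMP element lay in that of Ppp1r15a, and in 1.79% of all windows, and the C/EBP motif in none of the 9, with 10.8% of all windows holding it. The matches are shown in capitals, 5′ to 3′ on the strand of the gene, where the composite motif reads in reverse complement. The stretch of Chac1 is chr2:119351003-119351102 (plus strand), that of Nupr1 chr7:126625527-126625626 (minus strand), that of Ppp1r15a chr7:45526269-45526368 (minus strand) and that of Trib3, 30 bases just past the start, chr2:152344028-152344057 (minus strand). The matches begin 193, 110 and 12 bases before the start of Chac1, Nupr1 and Ppp1r15a, and at base 15 of the transcript of Trib3. A match is a description of letters and not a measured binding site, and windows without one say nothing of sites elsewhere.
Chac1: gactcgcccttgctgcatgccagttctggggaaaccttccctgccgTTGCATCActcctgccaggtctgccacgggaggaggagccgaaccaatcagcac
Nupr1: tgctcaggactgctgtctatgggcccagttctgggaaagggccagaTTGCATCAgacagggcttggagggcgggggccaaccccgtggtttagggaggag
Ppp1r15a: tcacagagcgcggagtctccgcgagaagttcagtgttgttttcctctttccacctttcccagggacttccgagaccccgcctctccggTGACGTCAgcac
Trib3: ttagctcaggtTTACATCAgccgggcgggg

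All 9 genes stepped up between the arrays at 42 and 44 h. The step is the difference between a straight line through the 16 arrays from 12 to 42 h, read at 42 h, and one through the 8 arrays from 44 to 58 h, read at 44 h. It passed an adjusted p of 0.05 (limma, Benjamini-Hochberg over all kept probe sets) and was above 0 for 9 of 9 members, with a median of 2.18, against 17.8% of all 9825 genes and a median of 0.05. A step of at least 1 on the log2 scale, which is a doubling, was reached by 7 of the 9, against 1.66% of all genes. In 8 of the 9 every array from 44 h on lay above every array before, which held for 6.06% of all genes. The members and the place of the boundary were chosen with earlier results on these arrays known. These counts, and their distance from the shares of all genes, therefore describe the genes. They are no independent evidence of a step there. In bulk RNA, fewer cells of a type and less RNA per cell cannot be told apart.

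**Figure D1:**
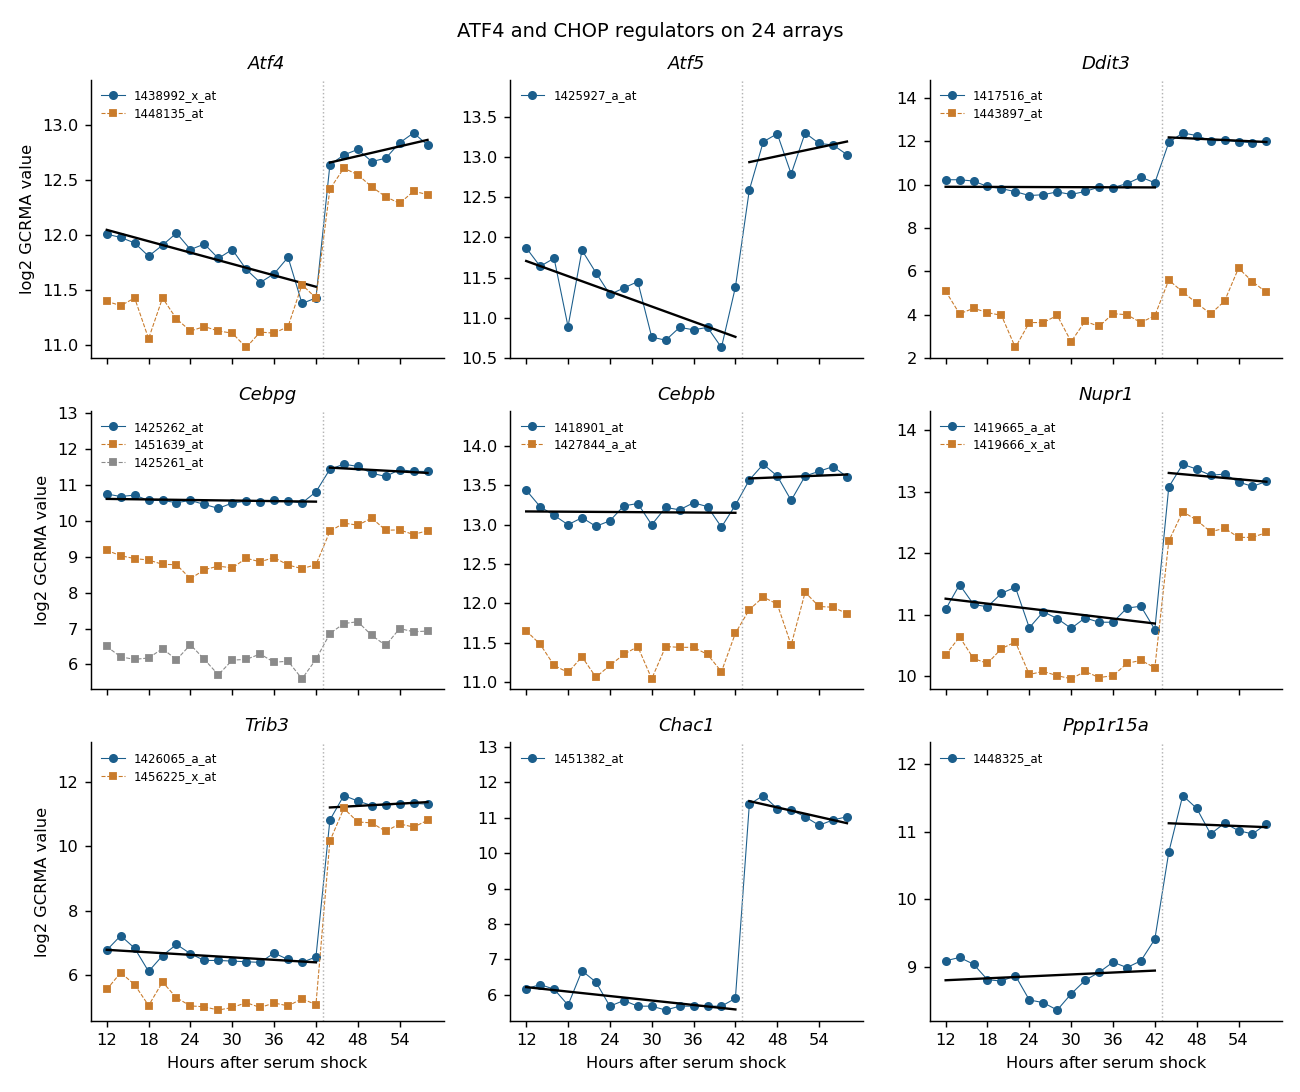
Log2 GCRMA values of the 16 member probe sets that passed the filter (y axes, 1 panel per gene, scales differ) against hours after serum shock, with 1 array per point. Filled circles are the representative probe set with its fitted lines in black, squares are other probe sets, and the dotted line separates 42 and 44 h. Each representative probe set lies higher after that line, Chac1 from a median of 5.69 to 11.13.

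Atf4, the central activator, rose 2.19-fold. Its representative probe set (1438992_x_at) had a lowest value of 11.38, a median of 11.84 and a highest of 12.02 from 12 to 42 h, and 12.64, 12.75 and 12.93 from 44 to 58 h. The windows were separate, with the lowest array after the step (44 h) 0.62 above the highest before it. The fitted step was 1.13 ± 0.08 (standard error, 24 arrays, as in all steps and changes given with ±), with an adjusted p of 2.27e-10. A second probe set (1448135_at) stepped by 1.32 ± 0.12, and its windows were also separate. The third (1439258_at) stood at the lowest value of the whole table, 2.17, on 22 arrays and gives no level.

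Atf5, a bZIP factor raised by ATF4 and known for mitochondrial stress responses, had 1 probe set. Before 44 h it ranged from 10.63 to 11.87 with a median of 11.33, and from 44 h on from 12.59 to 13.30 with a median of 13.16. It varied more than Atf4 before the step, with an SD over the 16 arrays of 0.43 against 0.20, which includes any trend in time. No array after the step fell into the earlier range. The fitted step was 2.17 ± 0.22, or 4.52-fold (adjusted p = 1.04e-07).

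Ddit3 encodes CHOP, which pairs with C/EBP proteins and is known for promoting cell death under lasting stress. The representative probe set ranged from 9.49 to 10.34 before the step (median 9.87) and from 11.93 to 12.38 after it (median 12.01). The gap between the windows, 1.59, was wider than the whole range before the step. The fitted step was 2.31 ± 0.19, or 4.96-fold (95% interval 3.79 to 6.48, adjusted p = 2.27e-09). A dim second probe set (1443897_at, mean 3.79 before and 5.06 after), which reached the filter value on 1 array before and 5 after, stepped by 1.39 ± 0.47 (adjusted p = 0.0302), and 3 of its 8 later arrays lay above all earlier ones.

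The C/EBP partners had the smallest steps by representative probe set, although the second probe set of Cebpg stepped more than the representative of Atf4. Cebpg, which encodes the short C/EBP gamma, ranged from 10.35 to 10.81 before (median 10.56) and from 11.24 to 11.58 after (median 11.41), with no overlap. It had a step of 0.95 ± 0.09, or 1.93-fold (adjusted p = 3.15e-08). Its other probe sets stepped by 1.18 ± 0.13 (1451639_at) and 1.03 ± 0.17 (1425261_at). Cebpb, an activator of liver acute phase and gluconeogenic genes, ranged from 12.97 to 13.44 before (median 13.20) and from 13.31 to 13.77 after (median 13.62), so the windows overlapped: the 50 h array, at 13.31, fell below the highest early one. Its step was 0.44 ± 0.11, or 1.35-fold (adjusted p = 0.00435), and that of its second probe set 0.58 ± 0.15. It was the one member whose step lost its call in other settings: with every second array from 12 h (0.47, adjusted p = 0.0505) or from 14 h (0.41, adjusted p = 0.163), and with the second line starting at 42 h (0.33, adjusted p = 0.0507).

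Nupr1 encodes a small stress-induced chromatin protein that works with ATF4 and is known from pancreas and liver injury. Its arrays ran from 10.76 to 11.49 before (median 11.07) and from 13.08 to 13.45 after (median 13.22). The step was 2.45 ± 0.13, or 5.46-fold (adjusted p = 2.85e-12), and 2.44 ± 0.13 in the second probe set.

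The effectors moved most. Trib3, a pseudokinase that binds ATF4 and AKT and restrains both, ranged from 6.12 to 7.23 before (median 6.53) and from 10.82 to 11.58 after (median 11.32). That is a step of 4.81 ± 0.18, or 28.0-fold (95% interval 21.7 to 36.3, adjusted p = 1.49e-15), while its second probe set (1456225_x_at) stepped by 5.71 ± 0.22. Chac1, an enzyme that breaks down glutathione, ranged from 5.57 to 6.68 before (median 5.69) and from 10.79 to 11.63 after (median 11.13). Its step of 5.88 ± 0.19, or 59.1-fold (95% interval 45.3 to 77.0, adjusted p = 5.24e-17), ranked 1 among all 9825 genes, where that of Trib3 ranked 3. On 7 arrays before 44 h Chac1 held the same value, 5.68, while the 32 h array lay lower, at 5.57, so 5.68 was not a strict floor. The cause of the repeats was not tested, and the true size of its step remains uncertain.

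Ppp1r15a, the feedback phosphatase subunit, ranged from 8.36 to 9.41 before (median 8.90) and from 10.70 to 11.54 after (median 11.07). The 42 h array was the highest of the earlier window and the 44 h array the lowest of the later one, 1.29 apart. The step was 2.18 ± 0.21, or 4.54-fold (adjusted p = 4.43e-08).

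By size of step the representative probe sets fell into 5 levels whose 95% intervals did not overlap: Chac1 (5.50 to 6.27), Trib3 (4.44 to 5.18), then Nupr1 (2.17 to 2.73), Ddit3 (1.92 to 2.70), Ppp1r15a (1.75 to 2.62) and Atf5 (1.72 to 2.63) together, then Atf4 (0.96 to 1.29) with Cebpg (0.76 to 1.13), and last Cebpb (0.21 to 0.66). The order of Chac1 and Trib3 depended on the probe set, since the second one of Trib3 (5.26 to 6.16) overlapped Chac1. So did the lower levels: the second probe set of Cebpb (0.27 to 0.90) overlapped Cebpg. The dim second one of Ddit3 (0.43 to 2.36) reached from the level of Nupr1 to that of Cebpb. With the 42 h array moved into the second line, the steps of Atf4, Nupr1, Trib3 and Chac1 were 0.59, 1.45, 3.06 and 3.88, still called.

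**Figure D2:**
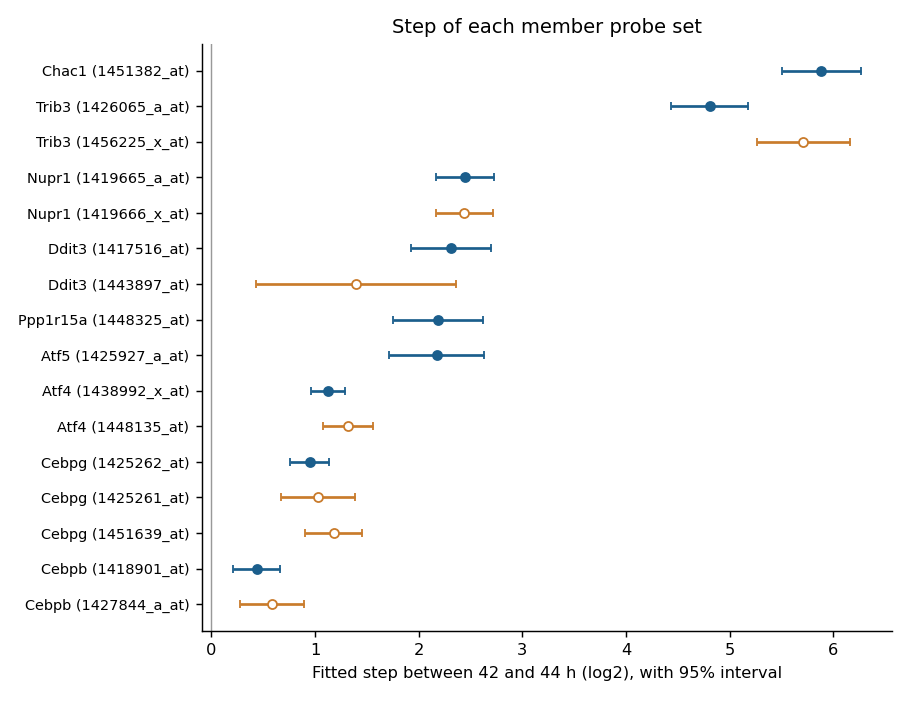
Fitted step between 42 and 44 h on the log2 scale (x axis) with its 95% interval for the 16 member probe sets (y axis), ordered by gene. Filled points are representative probe sets and open points the others. The intervals of Chac1 and Trib3 lie above 4, and those of Cebpb are nearest to 0, at 0.21 to 0.66 and 0.27 to 0.90.

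Before the step several members fell. Over 12 to 42 h, 4 of the 9 fell and 0 rose by limma (5 and 0 at an unadjusted p under 0.05), beside 14.1% and 15.1% of all genes. Atf5 fell by 0.94 ± 0.22, Chac1 by 0.63 ± 0.19, Atf4 by 0.52 ± 0.08 and Nupr1 by 0.40 ± 0.14 (adjusted p = 0.00271, 0.0141, 4.05e-05 and 0.0293). For Chac1 and Nupr1 the line hides an uneven course. Chac1 went from 6.36 at 22 h to 5.68 at 24 h, then stayed between 5.57 and 5.90 to 42 h. Nupr1 went from 11.45 to 10.79 between the same arrays, then stayed between 10.76 and 11.14. The probe sets of Atf4 disagreed, since the second gave −0.07 ± 0.12 (adjusted p = 0.717), and at 40 h the first had its lowest early value and the second its highest. The 40 h array had the lowest median over all kept probe sets, 8.96, and its part in this was not tested. Trib3 gave −0.39 ± 0.18 (adjusted p = 0.116), and its second probe set fell by 0.68 ± 0.22 (adjusted p = 0.0237). Each of these 4 falls lost its call in at least 2 other settings of the boundary or the arrays. Leaving out 1 array, at 14 h (−0.31, adjusted p = 0.114) or at 42 h (−0.36, adjusted p = 0.0826), ended the call of Nupr1, and leaving out 18 h made Trib3 a call (−0.52, adjusted p = 0.0167).

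Ddit3 and Ppp1r15a instead dipped and recovered. Ddit3 averaged 10.13 over 12 to 18 h, 9.55 over 24 to 30 h and 10.08 over 36 to 42 h. Ppp1r15a averaged 9.02, 8.48 and 9.14 in the same windows, with its lowest array at 28 h. A straight line over 12 to 42 h gave −0.03 and 0.14 for them (adjusted p = 0.928 and 0.66). Fitted from 20 h on, without the arrays at 12 to 18 h, both rose over the 22 h to 42 h, by 0.59 ± 0.15 (adjusted p = 0.0127) and 0.65 ± 0.21 (adjusted p = 0.041). Leaving out the higher early arrays favours a rise. The misfit of the line is part of their error, and the residuals of Ddit3 had a lag-1 correlation between neighbouring arrays of 0.59. Cebpg had a smaller dip in the same 3 windows, at 10.68, 10.47 and 10.61. Its probe set 1451639_at gave 9.01, 8.61 and 8.80, but 1425261_at did not recover (6.26, 6.13 and 5.97).

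The 2 h spacing set the limit on the order of onset. Interpolated linearly, the log2 value was midway in its rise, from the mean of 36 to 42 h to the later maximum, between 42.9 h (Cebpg) and 43.4 h (Ppp1r15a), all within 1 sampling interval. At 42 h 2 of 9 members exceeded all arrays from 12 to 40 h, a share near the 22.7% of all genes. They were Ppp1r15a, by 0.27, and Cebpg, by 0.06, where the SD over 36 to 42 h was 0.18 and 0.14. The other probe sets of Cebpg (1451639_at and 1425261_at) did not share this. At 42 h they lay 0.39 and 0.41 below their highest earlier array, and they were midway at 43.4 and 43.2 h. Atf5 was higher at 42 h (11.38) than at 40 h (10.63), but within its earlier range. Over all kept probe sets the median was 9.13 at 42 h, the highest before 44 h, and 8.96 at 40 h, the lowest. The part of these array-wide shifts in the values at 42 h and in the means of 36 to 42 h was not tested.

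By 44 h Chac1 had reached 95.6% of its log2 rise and Cebpg, Nupr1 and Trib3 from 85.0 to 86.0%. Ddit3 stood at 80.8%, Atf4 at 78.6%, Atf5 at 69.9%, and Ppp1r15a and Cebpb at 65.0 and 64.9%. This order depended on the probe set. The other probe sets of Cebpg stood at 71.5 and 72.9%, and the second of Atf4 at 85.0%. All 9 were higher at 46 than at 44 h, as were 79.6% of the 1745 genes with a step up. The largest gains over these 2 h were those of Ppp1r15a (0.84), Trib3 (0.76) and Atf5 (0.60). The 46 h array also had the highest median over all kept probe sets, 9.14 against 9.13 at 44 h, and its part in these gains was not tested. The maximum lay at 46 h in 7 members, Atf5 at 52 h and Atf4 at 56 h, while the second probe set of Atf4 peaked at 46 h.

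**Figure D3:**
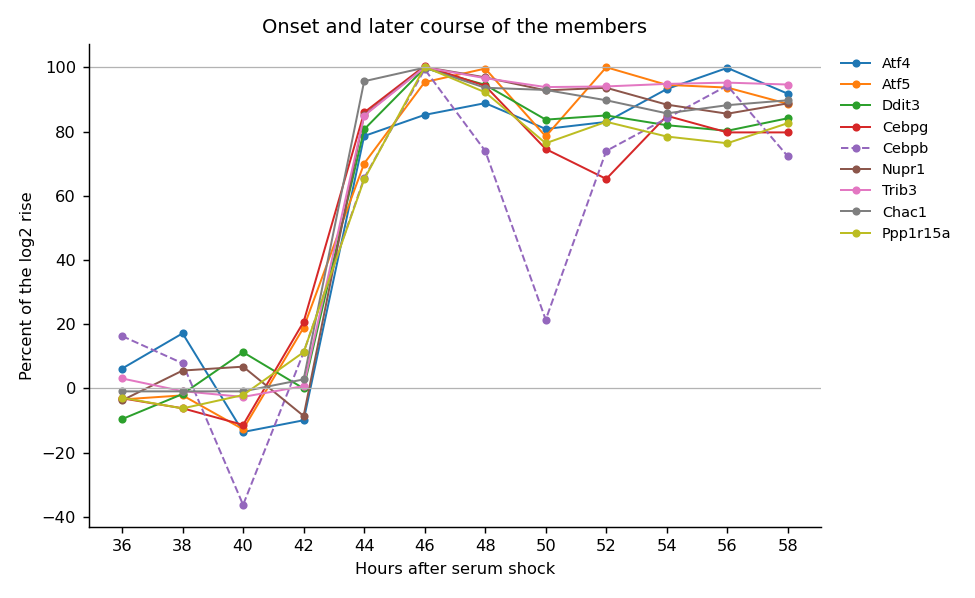
Percent of the log2 rise (y axis) of each representative probe set from 36 to 58 h after serum shock (x axis), where 0 is its mean over 36 to 42 h and 100 its highest later array. At 44 h the genes spread from 64.9% (Cebpb, dashed) to 95.6% (Chac1), and at 58 h from 72.2% to 94.7%.

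After the step the genes stayed high. None of the 9 was called as falling or rising from 44 to 58 h by limma (1 and 0 at an unadjusted p under 0.05), where 0.55% of all genes fell. Chac1 had the steepest slope at −0.62 ± 0.25 over 14 h (adjusted p = 0.373), from a mean of 11.37 over 44 to 50 h to 10.95 over 52 to 58 h. Nupr1 gave −0.14 ± 0.18, Ddit3 −0.21 ± 0.25, Trib3 0.17 ± 0.24 and Atf4 0.21 ± 0.11 (adjusted p = 0.917, 0.903, 0.93 and 0.573). For Ddit3 the 95% interval, from 8 arrays on this line, ran from −0.73 to 0.31, so neither a fall nor a rise within it is set apart. At 58 h the share of the log2 rise that was left ran from 72.2% (Cebpb) to 94.7% (Trib3), with 84.3% for Ddit3, 89.7% for Chac1 and 91.7% for Atf4.

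Since the series was made to profile the clock, a 24 h cosine and sine were added to the 2 lines, a test added with the values known. Among the 9 members it called 2, beside 11.8% of all genes: Ddit3 (amplitude 0.27, adjusted p = 0.00696) and Ppp1r15a (0.26, adjusted p = 0.0419). Their dip and recovery before 44 h covers about 1 cycle, so a cycle and a single dip cannot be told apart, and the second probe set of Ddit3 was not called (0.51, adjusted p = 0.103). The steps remained called for all 9 with these terms.

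The rest of the pathway was read from gene lists chosen with earlier results of these data known. Over all 9825 genes 17.8% stepped up, 1.66% by at least 1, and 10.1% stepped down, and the counts of each list stand beside these shares. Of the genes known as ATF4 targets (amino acid transporters, synthetic enzymes, tRNA synthetases and others), 38 of 39 measured stepped up and 0 down, with a median step of 1.29, and 32 by at least 1. Of the 39, Aldh1l2, Slc7a11, Stc2 and Slc1a5 reached the filter value of 5 on fewer than 6 arrays before 44 h and so passed it through the later arrays. Of the other 35, 35 stepped up. The median of 1.29 still includes the late-passing genes. The count of 32 includes Aldh1l2, Slc7a11 and Stc2, which stepped by 5.09, 4.45 and 1.70. Asns (asparagine synthetase) stepped by 2.88 ± 0.14, Slc3a2 (the heavy chain of amino acid exchangers) by 1.90 ± 0.10 and Pck2 (mitochondrial PEPCK) by 1.38 ± 0.08 (adjusted p = 2.50e-13, 1.83e-12 and 4.03e-12). The exception was the glutamine transporter Slc1a5 (0.23, adjusted p = 0.481), named after its value was seen. Of 6 measured genes known as CHOP targets 3 stepped up and 0 down, but Car6, a secreted carbonic anhydrase, passed the filter through its later arrays alone. Without it 2 of 5 stepped up, among them Bbc3, which encodes the pro-death protein PUMA (0.84 ± 0.20, adjusted p = 0.00375). Car6 lay at a mean of 2.22 near the lowest value before and averaged 6.43 after, with its lowest later array at 2.21.

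Upstream of ATF4, the mRNAs of the eIF2 kinases and the eIF2 cycle were near the shares of all genes. Kinase activity and the phosphorylation of eIF2 were not measured. Of 20 measured 3 stepped up and 2 down, with a median of 0.07 against 0.05, and none of the 4 kinases was called. The 1 step of at least 1 was that of Eif2b3 (1.05 ± 0.15, adjusted p = 2.33e-05), named after its value was seen. The 2 of smallest p were Eif2s2, the beta subunit of eIF2 (0.73 ± 0.07), and Ppp1r15b, the constitutive counterpart of GADD34 (0.60 ± 0.07), with adjusted p = 1.42e-08 and 8.58e-07. Among 23 measured bZIP relatives 7 stepped up and 2 down, against 17.8% and 10.1% of all genes, led by Atf3 (2.79 ± 0.29) and Jdp2 (1.19 ± 0.13; adjusted p = 1.26e-07 and 5.26e-07), both of which also stand on the ATF4 target list. The Tribbles relatives had 1 of 3 called, Stk40 (0.51 ± 0.17, adjusted p = 0.031), while the other one named, Trib1, gave 0.20 ± 0.15 (adjusted p = 0.345).

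Endoplasmic reticulum genes of the ATF6 and XBP1 arms moved in both directions, as all genes did. Of 22 measured, 5 stepped up and 4 down, against 17.8% and 10.1% of all genes, with a median of 0.00 against 0.05 for all genes. Ern1, the sensor kinase of the XBP1 arm, stepped by 1.11 ± 0.13 and Derl1, a membrane protein of the degradation machinery, by 0.71 ± 0.08 (adjusted p = 6.64e-07 and 1.44e-06). Chosen after their values were seen, Xbp1 and the other called genes of this list are added. Herpud1, on this list and on that of ATF4 targets, stepped by 0.80 ± 0.12. The chaperone Calr stepped down by 0.60 on the log2 scale (−0.60 ± 0.07, adjusted p = 1.45e-06), and Xbp1 itself gave 0.02 (adjusted p = 0.898). Hspa5 and Dnajb9 stepped up by 0.41 ± 0.09 and 0.24 ± 0.08 (adjusted p = 0.00186 and 0.0271). Sdf2l1, Pdia6 and Edem1 stepped down (−0.54 ± 0.09, −0.27 ± 0.09 and −0.21 ± 0.06, adjusted p = 0.000101, 0.0369 and 0.00793). Of 10 measured mitochondrial stress genes 6 stepped up and 0 down, against the same 17.8% and 10.1%, with a median of 0.30. Hspa9, the matrix HSP70, stepped up by a 95% interval of 0.83 to 1.18, and the protease Lonp1 by 0.67 ± 0.11 (adjusted p = 5.55e-09 and 7.05e-05).

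**Figure D4:**
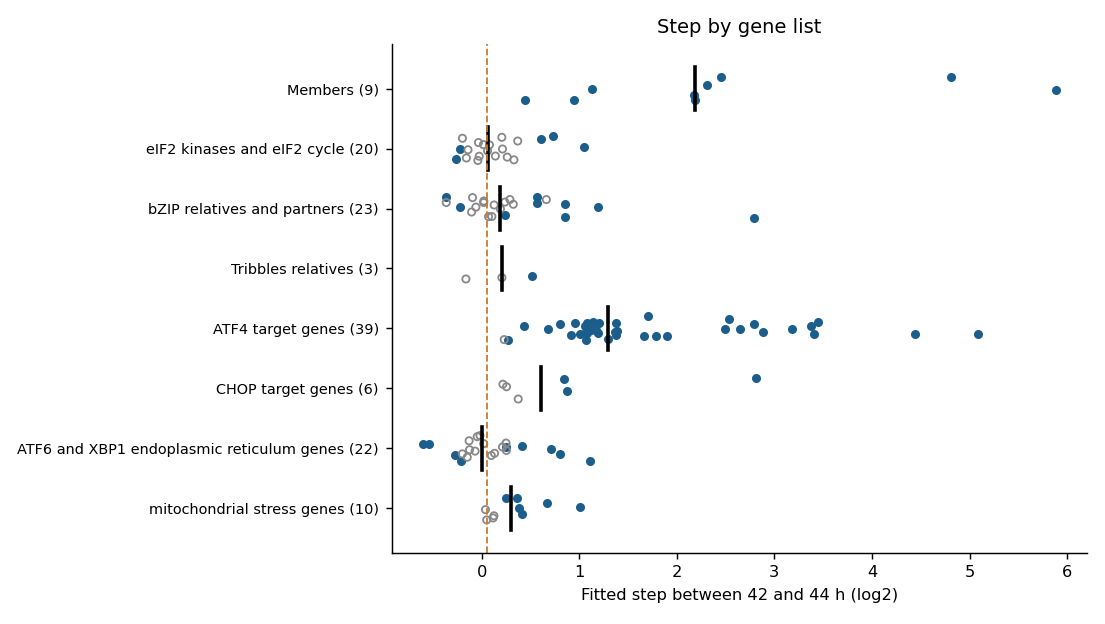
Fitted step between 42 and 44 h on the log2 scale (x axis) for each measured gene, by list (y axis, number measured in brackets). Filled points passed an adjusted p of 0.05, open points did not, black bars are list medians and the dashed line is the median of all genes, 0.05. The members and the ATF4 targets lie mostly above 0.5, while the eIF2 and ATF6/XBP1 lists centre near 0.

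The genes outside the list whose profile over the 24 arrays was most like that of Ddit3 were Slc6a9, Atf3, Sars, Slc3a2 and Arl14ep, with Pearson r from 0.980 to 0.990. A shared step alone gives a high r. Within the 16 arrays before 44 h the r of these genes with Ddit3 was 0.77, 0.81, 0.75, 0.44 and 0.49, and within the 8 later arrays 0.78, 0.86, 0.79, 0.97 and 0.26. For Atf4 they were Asns, Shmt2, Naf1, Aldh18a1 and Phgdh, with r from 0.958 to 0.979. Before the step their r with Atf4 was 0.86, 0.72, 0.87, 0.67 and 0.62, and after it 0.06, 0.07, −0.11, −0.11 and 0.26. Neighbouring arrays share their time and the processing, so these values describe likeness and carry no test.

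The culture kept hepatocyte and bile duct markers across the step, although several changed in level. All 6 hepatocyte markers named on the array and all 4 of bile duct were measured, while the 4 fibroblast and 4 endothelial markers stayed near the lowest value of the table on all arrays, with a highest value of 2.59. Of 5 macrophage markers Cd68 and Csf1r were measured (means before of 6.10 and 5.38), without a called step, and Ptprc, Adgre1 and Clec4f lay near the lowest value. Among hepatocyte markers Ttr, Hnf4a and Alb stepped down (−0.87, −0.35 and −0.32, adjusted p = 0.000211, 0.0158 and 0.0145), Rbp4 stepped up (0.31, adjusted p = 0.0251), and their part in the members' steps was not tested. The summed linear signal of the 6 ran from 16.70 to 17.12 on the log2 scale before and from 16.37 to 16.84 after. Alb, with a mean of 16.11 before, was the largest part of this sum. Without a called step, Apoa1 averaged 14.09 before and 12.45 after, and the bile duct marker Epcam 11.1 and 10.4. The bile duct marker Sox9 averaged 8.58 before and 8.79 after. The median over kept probe sets ran from 8.96 (40 h) to 9.13 before and from 9.09 to 9.14 after.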

How the data were processed

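The authors deposited 1 table of log2 values per probe set for the 24 arrays, and the submitters' processing notes name GCRMA. Version and settings are not given in the sources used here. Judged by range, the values themselves (lowest 2.17) point to a log2 scale. GCRMA corrects background by probe sequence and normalizes the arrays together, so each array's values depend on all. The number of arrays limits the precision.

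In GEO's platform annotation 34958 probe sets had 1 gene symbol, 932 had several and 9211 had no symbol. Control probe sets (64) were left out. After the filter, 18526 probe sets remained and were fitted with limma 3.58.1 (R 4.3.3, variance trend) with a line over 12 to 42 h and one over 44 to 58 h, and tested by Benjamini-Hochberg adjusted p under 0.05. The step, and the change along each line over 30 and 14 h, were the quantities tested. The fit was tested on simulated data with flat levels, added steps and independent errors. These held no slope, dip, cycle or correlation between arrays, so they say nothing of the fit for courses such as that of Ddit3. The members, lists and boundary were chosen with earlier results of these data known.

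Named were all members, from each list the 2 genes of smallest p for the step (3 for ATF4 targets), and the 5 genes most like Ddit3 and Atf4 by Pearson r. Slc1a5, Eif2b3, Herpud1, Calr, Xbp1, Hspa5, Dnajb9, Sdf2l1, Pdia6, Edem1 and the targets that passed the filter late (Aldh1l2, Slc7a11, Stc2) fall outside this rule. They were named with their values known. Markers of cell types are named as listed. Older symbols were matched through RefSeq synonyms. Alternatives were other boundaries, filters, normalizations, variance priors, added 24 h terms, no slopes, means of probe sets and arrays left out.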

Additional observations from a re-analysis of the deposited data

How the results depend on the processing

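The step up of Atf4, Atf5, Ddit3, Trib3, Chac1, Ppp1r15a, Cebpg and Nupr1 was called in each of the 38 alternatives run, single arrays left out included, and that of Cebpb in 35. The count of members with a step was within 1.5 times of 9 in all of them. Quantile normalization and centring changed no call of a step. Without 42 and 44 h together, chosen after seeing the data, all 9 steps were called.

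The changes before the step were less stable. The number of members falling over 12 to 42 h, 4 in the main setting, was 1 with the second line from 42 h and 0 with it from 46 h, 2 with every second array from 12 h, 1 with every second array from 14 h and 2 without 12 to 18 h, where 2 rose. With the line from 46 h Chac1 and Nupr1 gave 1.08 and 0.26 (adjusted p = 0.344 and 0.602), which by construction puts the 44 h array on the first line, and without 12 to 18 h Ddit3 gave 0.80 as a slope scaled to 30 h, which is 0.59 over the 22 h fitted. With the second line from 42 h, 3 members rose over 44 to 58 h (Atf4, Atf5 and Trib3), where the 42 h array starts that line. The causes of the other changes were not tested. No paired analysis was possible because each time point has 1 array. Levels near the lowest value of the table limit the size of steps from dim genes.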
